A study of Danio rerio with 27 samples.

Results

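Liver cells that carried the mCherry reporter were compared with liver cells of the same line that did not, in fish that had received only control injections. The line was Tg(kdrl:ras-mCherry), in which the promoter of kdrl, a receptor of vascular endothelial growth factor (VEGF), drives a membrane-bound mCherry, so that the positive gate was meant to hold endothelial cells (ECs) and the negative gate all other cells of the liver. The comparison took 6 of the 27 RNA-seq libraries of the series, chosen by the names of their columns, with 3 mCherry-positive and 3 mCherry-negative control libraries, and all 18336 genes of the table. All fish of both groups were adult females in the AB background, received control injections 6 times in 2 weeks, and gave 100000 sorted cells per library. The sources name the injected control liquid both as sterile water and as saline. The series also holds positive and negative cells of the dsRed reporter line of hepatocytes (HEPs) and the EGFP reporter line of hepatic stellate cells (HSCs), and cells of fish treated with thioacetamide (TAA). Per the methods 6 fish received control injections, and how these were divided over the 3 reporter lines is not stated. If the 6 were divided evenly over the 3 lines, the 3 libraries of each gate cannot all be from separate fish. The labels do not say which libraries came from separate fish, so a p-value measures only the spread between these libraries, which may be technical. The transcripts of the reporter itself are not analysed here.

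The endothelium of the liver is made up of the lining of arteries and veins and, for the most part, of that of the sinusoids, the wide capillaries that run between the plates of hepatocytes. Sinusoidal ECs are known for their open pores, for scavenger receptors that take up waste molecules from the blood, and for making clotting factor VIII. Their identity rests on receptors of VEGF and angiopoietins, on Notch signalling between neighbouring cells and on transcription factors of the Ets, Sox and Klf families. The other cells of the organ include hepatocytes, which make most proteins of the blood plasma and, in egg-laying females, the yolk precursors, as well as bile duct cells, stellate cells, resident macrophages and passing blood cells.

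The deposited values are regularized log (rlog) values, which are log2 expression values after scaling for library size, with the differences of genes of few reads pulled towards 0. All levels below are rlog values, and all differences are log2 differences of group means, mCherry-positive minus mCherry-negative. Levels were compared between libraries only and not between genes, since rlog values do not allow for gene length. The 3 mCherry-positive libraries correlated with each other at r = 0.963 to 0.972 across genes, the 3 negative libraries at 0.958 to 0.971, and libraries of opposite gates at 0.805 to 0.871. The 3 highest of these correlations between gates were those of mCherry-negative replicate 1, at 0.850 to 0.871. That library had a mean level of 5.50 over 19 endothelial marker genes, against 2.29 and 2.97 in negative replicates 2 and 3, and all 19 genes stood above both of the other negative libraries in it. Leaving this library out raised the differences of most endothelial genes, and the values without it are given for the marker lists of ECs, the VEGF list and the 10 most raised genes. The spread was estimated from all 18 control libraries of the series, and among these EGFP-negative replicate 3 stood apart, with an endothelial mean of 6.52 and a hepatocyte mean of 6.18, where the other EGFP-negative libraries had 2.59 and 2.77, and 11.30 and 11.43. That library is of another line, but it enters the estimate of the spread, and results of a fit of the 6 mCherry libraries alone are therefore given beside the hepatocyte genes.

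kdrl (ENSDARG00000105215), whose promoter drives the reporter, was read at 12.74, 12.78 and 12.51 in the mCherry-positive and 9.44, 5.34 and 6.79 in the mCherry-negative libraries. The positive libraries lay close together and above all negative libraries, of which replicate 1 was the highest. The difference of 5.48 ± 1.01 (SE, adjusted p = 0.00089) corresponds to 44.6-fold on this scale, and it was 6.604 without negative replicate 1. As the sort was made on this promoter, the value checks the labels and is not a finding.

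**Figure D1:**
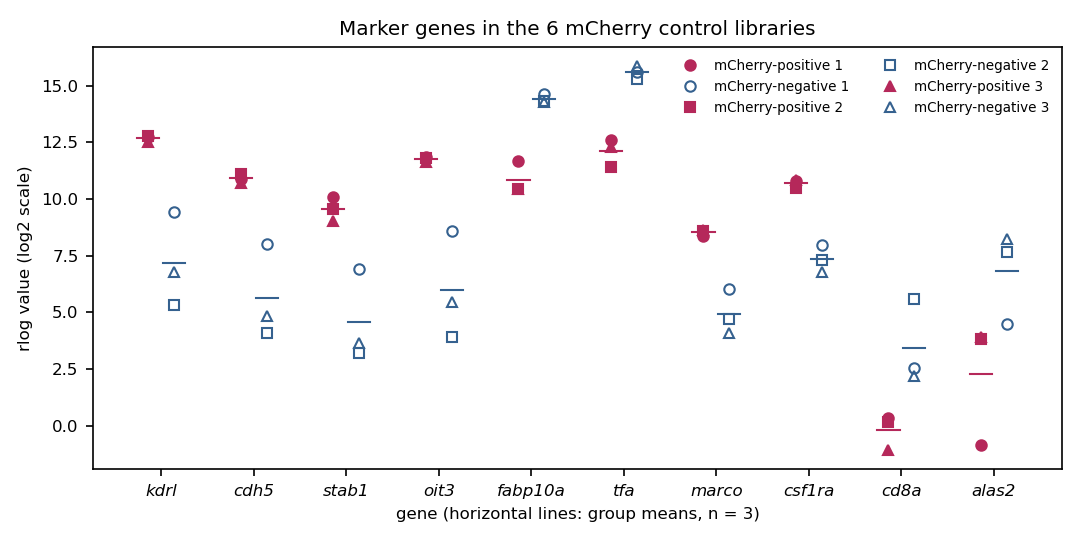
Levels of 10 marker genes in each of the 6 mCherry control libraries, as rlog values on the log2 scale (vertical axis), with filled symbols for mCherry-positive and open symbols for mCherry-negative libraries, 1 shape per replicate number and horizontal lines at the group means (n = 3). The 3 positive libraries lie above all negative libraries for kdrl, cdh5, stab1, oit3, marco and csf1ra, and below them for fabp10a, tfa, cd8a and alas2.

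Across the table, 2747 of 18336 genes (15.0%) were higher and 2621 (14.3%) were lower in mCherry-positive cells at a Benjamini-Hochberg adjusted p below 0.05 in the moderated test of limma, which gives all adjusted p below. The differences ran from -5.76 to 6.02 with a median of 0.10. When each library was centred on its own median value, the median of all genes moved to -0.03, and 0 called genes were called in the opposite direction. As centring shifts all differences by the same small amount, a change of direction was hardly possible. In the fit of the 6 mCherry libraries alone, 4328 genes (23.6%) were higher and 3536 (19.3%) lower, and without negative replicate 1 the counts were 2274 (12.4%) and 2099 (11.4%). With the replicate number as a block they were 2536 (13.8%) and 2621 (14.3%), and when the 18-library fit was left without EGFP-negative replicate 3, a setting chosen after seeing the data, they were 3646 (19.9%) and 3329 (18.2%). Without negative replicate 3, 1802 genes (9.83%) were higher. All 3 positive libraries stood above all 3 negative libraries for 5565 genes (30.4%) and below them for 4718 (25.7%), in all 56.1%, where 29.3% were called in either direction. As the samples are bulk RNA, a lower value can come from fewer cells of a type or from less RNA of the gene per cell, and these cannot be told apart.

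**Figure D2:**
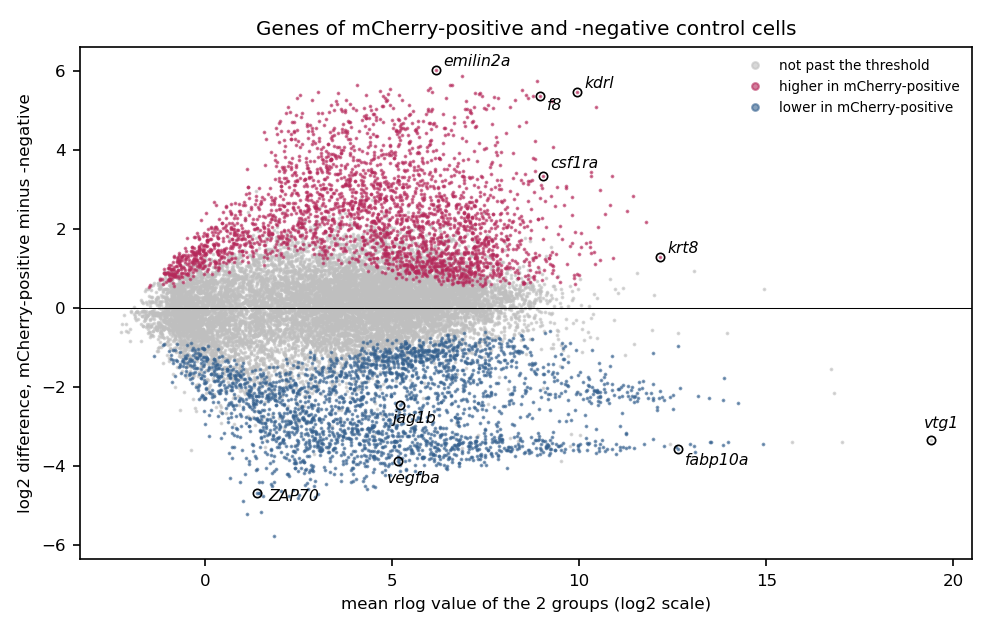
Log2 difference between mCherry-positive and mCherry-negative control cells (vertical axis) against the mean rlog value of both groups (horizontal axis), with 1 point per gene, coloured where the adjusted p in the 18-library fit was below 0.05. The lower calls at high levels lie in a flat band, in which fabp10a has a difference of -3.55, while emilin2a is the highest point with 6.02.

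Of the 19 endothelial markers found in the table all 19 rose, with differences from 4.18 to 5.57 and a median of 5.02, beside 15.0% of all genes called higher and a median of 0.10 over all genes. cdh5, which encodes the vascular cadherin that joins ECs to each other, was at 10.89, 11.12 and 10.71 in the mCherry-positive and 8.003, 4.09 and 4.85 in the mCherry-negative libraries. Its difference was 5.26 ± 0.85 (SE, adjusted p = 0.00039). she, which encodes an adaptor protein found in ECs, was at 8.75, 8.85 and 8.80 in the mCherry-positive and 5.78, 1.70 and 2.19 in the mCherry-negative libraries, and its difference of 5.57 ± 1.002 (SE, adjusted p = 0.00078) was the largest of the list. In both genes negative replicate 1 lay well above the other negative libraries and below every positive library. The smallest difference of the list was that of fli1a, an Ets factor of blood vessels, with 4.18 ± 0.89 (SE, adjusted p = 0.0023). Without negative replicate 1 the median of the list was 6.05 and all 19 remained higher. The list holds kdrl, on whose promoter the cells were sorted, and the median of the other 18 genes was 5.02. The mean of the positive libraries exceeded negative replicate 1 alone by 2.604 to 3.643 in every marker.

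Markers of scavenger sinusoidal ECs followed the same direction, with 6 of 7 found genes higher, beside 15.0% of all genes. Their median was 4.98, or 6.14 without negative replicate 1. oit3, a secreted protein of liver sinusoidal ECs in mammals, was read at 11.83, 11.81 and 11.61 in the mCherry-positive and 8.60, 3.92 and 5.47 in the mCherry-negative libraries, a difference of 5.76 ± 0.995 (SE, adjusted p = 0.00062). f8, which encodes clotting factor VIII, was at 11.63, 11.74 and 11.53 in the mCherry-positive and 8.44, 4.58 and 5.75 in the mCherry-negative libraries, a difference of 5.38 ± 1.13 (SE, adjusted p = 0.0022). The receptor genes stab1, which encodes a scavenger receptor for hyaluronan and modified proteins, and gpr182, which encodes a chemokine-binding receptor, had differences of 4.98 ± 0.93 (SE, adjusted p = 0.0010) and 4.81 ± 0.80 (SE, adjusted p = 0.00049). ehd3, which encodes a membrane-trafficking ATPase, differed by 5.25 ± 0.70 (SE, adjusted p = 0.00011). In all of these the lowest positive library lay more than 2 log2 units above the highest negative library. The other members had smaller differences. lyve1a, a hyaluronan receptor of lymphatic and venous ECs, was at 0.85, 1.17 and 2.67 in the mCherry-positive and -0.51, 0.10 and 0.18 in the mCherry-negative libraries and rose by 1.64 ± 0.48 (SE, adjusted p = 0.017). stab2, the partner of stab1, was at 3.10, 3.52 and 2.30 in the mCherry-positive and 1.55, 1.395 and 0.93 in the mCherry-negative libraries and did not pass the test, with a difference of 1.68 ± 0.74 (SE, adjusted p = 0.10). Its groups did not overlap, and it passed in the fit of the 6 libraries (adjusted p = 0.016). lyve1a lost its call without negative replicate 1 or positive replicate 3 (highest adjusted p = 0.097).

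**Figure D3:**
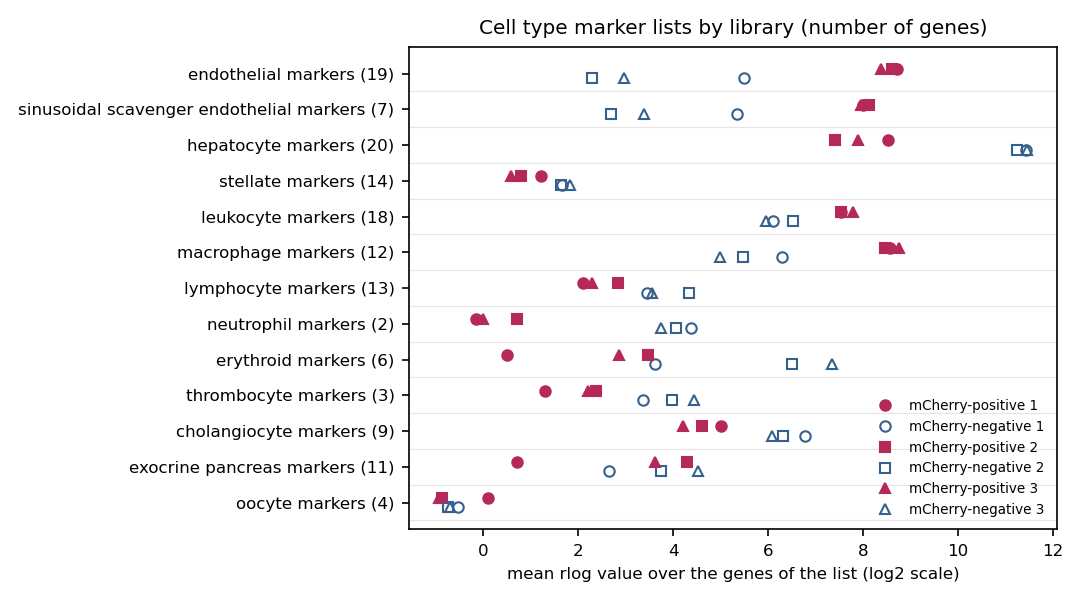
Mean rlog value over the genes of each cell type marker list (horizontal axis, log2 scale) in the 6 mCherry control libraries, with filled symbols for mCherry-positive and open symbols for mCherry-negative libraries and the number of genes in parentheses. The endothelial mean is 8.39 to 8.71 in the positive libraries and 5.50, 2.29 and 2.97 in the negative libraries, and the hepatocyte mean is 7.42 to 8.53 against 11.25 to 11.47.

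In the VEGF and angiopoietin pathways, which guide the growth and the stability of vessels, receptors rose and ligands went both ways. Of 13 genes found, 9 were higher and 2 lower, beside 15.0% and 14.3% of all genes, so that the count of lower genes is near the background. The 9 include kdrl, which is set aside because the sort was made on its promoter, and of the other 12 genes 8 were higher and 2 lower, with a median of 4.42, or 5.22 without negative replicate 1. The VEGF receptors flt1, kdr and flt4 rose by 5.39 ± 0.91, 5.32 ± 0.97 and 5.25 ± 0.80 (SE, highest adjusted p = 0.00083). The receptor gene tie1 and tek, the angiopoietin receptor gene, rose by 4.61 ± 0.80 and 4.24 ± 0.995 (SE, highest adjusted p = 0.0044). flt1, kdr, flt4, tie1 and tek are also on the endothelial marker list and were counted there already. ptprb, the phosphatase that restrains tek in mammals, rose by 5.33 ± 0.90 (SE, adjusted p = 0.00052), and the VEGF co-receptor nrp1b by 2.78 ± 0.80 (SE, adjusted p = 0.015). The ligand angpt2a, which ECs are known to make themselves, was at 7.86, 7.72 and 6.76 in the mCherry-positive and 5.18, 0.09 and 0.96 in the mCherry-negative libraries. It rose by 5.37 ± 1.01 (SE, adjusted p = 0.0010), and negative replicate 1 stood above the other negative libraries by more than 4 log2 units. The ligand vegfba showed the opposite order, with 3.999, 2.80 and 2.85 in the mCherry-positive and 7.26, 6.97 and 7.04 in the mCherry-negative libraries. Its difference was -3.87 ± 0.49 (SE, adjusted p = 6.9e-05), and no library of either group reached into the other. ANGPT1, the ligand that activates tek and is known from cells around vessels, was at -1.02, -1.03 and -0.999 in the mCherry-positive and 0.63, 0.28 and 0.38 in the mCherry-negative libraries, and its difference was -1.44 ± 0.46 (SE, adjusted p = 0.024). VEGFC, the ligand of flt4, had a difference of 2.27 ± 0.86 (SE, adjusted p = 0.057), short of the threshold. ANGPT1 lost its call without negative replicate 1 or 3 or positive replicate 1, 2 or 3 (highest adjusted p = 0.073).

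Notch signalling passes from a ligand on a cell to a receptor on its neighbour, and its members also went both ways. Of 14 genes found, 7 were higher and 2 lower, beside 15.0% and 14.3% of all genes. The count of lower genes is thus near the background. The ligand gene dll4, of the tips of growing vessels and of arteries, was at 9.91, 9.60 and 9.10 in the mCherry-positive and 6.86, 3.45 and 4.08 in the mCherry-negative libraries, a difference of 4.74 ± 0.82 (SE, adjusted p = 0.00064). dll4 is also on the endothelial marker list. The receptor gene notch1b was at 11.23, 11.09 and 10.52 in the mCherry-positive and 8.18, 5.08 and 5.45 in the mCherry-negative libraries, with a difference of 4.71 ± 0.87 (SE, adjusted p = 0.00091). The ligand genes jag2b and dlc rose by 3.51 ± 0.52 and 3.07 ± 0.55 (highest adjusted p = 0.00080), and LFNG and mfng, whose products add sugars to Notch receptors and so tune their response, rose by 3.93 ± 0.64 and 2.85 ± 0.76 (highest adjusted p = 0.0096). notchl, a Notch-like gene, rose by 5.04 ± 1.002 (SE, adjusted p = 0.0015). jag1b, a ligand gene of bile ducts and other tissues, was lower, at 4.41, 4.06 and 3.52 in the mCherry-positive and 6.67, 6.54 and 6.15 in the mCherry-negative libraries, a difference of -2.46 ± 0.37 (SE, adjusted p = 0.00027). NOTCH3, the receptor known from mural cells around vessels in mammals, was at 5.34, 4.50 and 3.45 in the mCherry-positive and 7.28, 7.12 and 6.86 in the mCherry-negative libraries, a difference of -2.66 ± 0.82 (SE, adjusted p = 0.021). Neither gene had an overlap between the groups. NOTCH3 lost its call without negative replicate 1 or 2 or positive replicate 2 or 3 (highest adjusted p = 0.097).

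**Figure D4:**
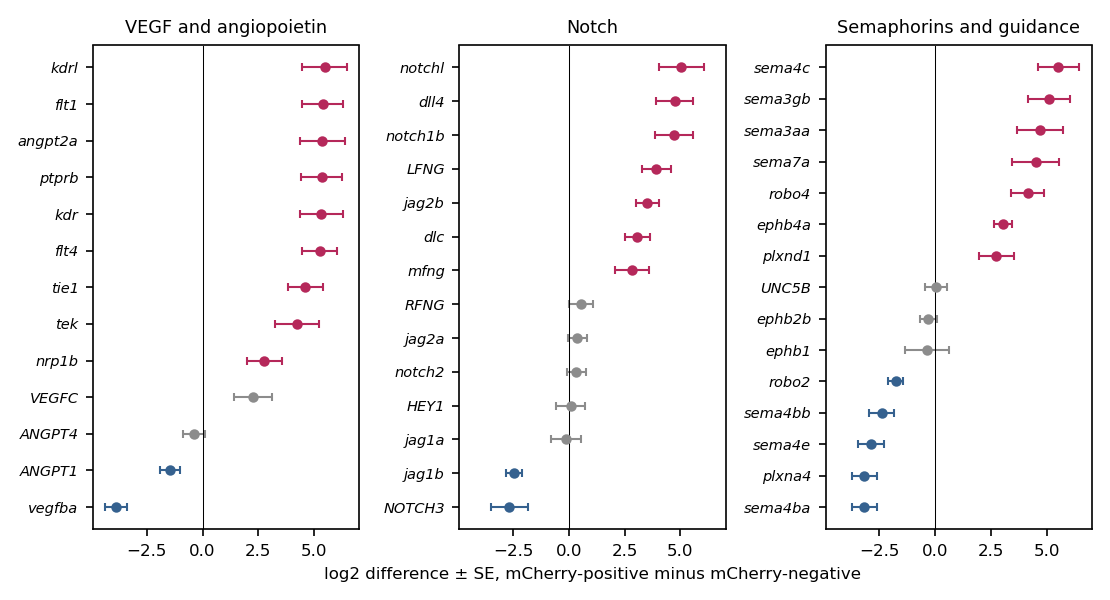
Log2 difference between mCherry-positive and mCherry-negative control cells for each gene found of the VEGF and angiopoietin, Notch, and semaphorin and guidance lists, with bars of 1 SE from the fit of 18 control libraries, red for higher, blue for lower and grey for not past the threshold. Each panel has members on both sides of 0, from vegfba at -3.87 to kdrl at 5.48, from NOTCH3 at -2.66 to notchl at 5.04, and from sema4ba at -3.18 to sema4c at 5.53.

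Among transcription factors of ECs, 12 of 17 found genes rose and none fell, beside 15.0% and 14.3% of all genes, with a median of 3.397. Members such as erg, SOX7, sox18 and etv2 are also on the endothelial marker list. erg, an Ets factor that keeps ECs differentiated, was at 6.69, 6.25 and 5.91 in the mCherry-positive and 3.09, -0.32 and -0.23 in the mCherry-negative libraries. Negative replicates 2 and 3 were thus near 0 on the rlog scale and replicate 1 was not, and the difference was 5.44 ± 0.81 (SE, adjusted p = 0.00023). The Sox genes SOX7, sox18 and SOX17, of which SOX7 and sox18 act together in vessel formation, differed by 5.02 ± 0.91, 4.57 ± 1.04 and 3.58 ± 0.51 (highest adjusted p = 0.0035). The flow-responsive factor genes klf2a and klf2b differed by 4.34 ± 0.91 and 3.397 ± 0.79 (highest adjusted p = 0.0040). etv2, known as an early switch of the vessel lineage in the embryo, was at 7.68, 7.53 and 7.52 in the mCherry-positive and 4.57, 2.37 and 1.79 in the mCherry-negative libraries, a difference of 4.67 ± 0.83 (SE, adjusted p = 0.00072). gata4, which in mice directs the sinusoidal rather than the continuous type of liver EC, was at 9.55, 8.79 and 8.57 in the mCherry-positive and 7.44, 6.77 and 6.63 in the mCherry-negative libraries. Its difference was 2.02 ± 0.28 (SE, adjusted p = 0.00013), and the negative libraries lay within 1 log2 unit of each other. NR2F2, the vein-specifying factor, differed by 1.02 ± 0.43 (SE, adjusted p = 0.087), and it passed with the replicate number as a block (adjusted p = 0.038). LMO2, a partner of blood and vessel factors, did not pass, with a difference of 2.29 ± 0.91 (SE, adjusted p = 0.067).

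Matrix genes gave the largest rise of the table and also falls, with 12 of 21 found genes higher and 4 lower. Over all genes 15.0% were higher and 14.3% lower, so that the count of lower genes is not far from the background. emilin2a (ENSDARG00000061196), an elastin-associated glycoprotein gene, was at 9.15, 9.27 and 9.13 in the mCherry-positive and 5.85, 1.21 and 2.42 in the mCherry-negative libraries. Its difference of 6.02 ± 1.16 (SE, adjusted p = 0.0012) was the largest of all genes, and 7.37 without negative replicate 1. The vascular basement membrane chains col4a1 and col4a2, of type IV collagen, rose by 4.71 ± 0.98 and 4.99 ± 0.87 (highest adjusted p = 0.0021), and lama4, the laminin chain of endothelial basement membranes, rose by 4.45 ± 0.64 (SE, adjusted p = 0.00018). mmrn2a, which encodes an EC surface multimerin, rose by 5.04 ± 0.91 (SE, adjusted p = 0.00080), and igfbp7, a secreted protein of vessels, by 5.06 ± 0.97 (SE, adjusted p = 0.0012). In contrast, fbln5, which encodes an elastic fibre protein, was at 4.27, 3.603 and 3.31 in the mCherry-positive and 7.54, 7.33 and 7.12 in the mCherry-negative libraries, a difference of -3.600 ± 0.75 (SE, adjusted p = 0.0019). LAMA5, a laminin chain of epithelial and vascular basement membranes, was at 1.601, -0.29 and 1.57 in the mCherry-positive and 4.12, 3.86 and 3.69 in the mCherry-negative libraries, a difference of -2.93 ± 0.79 (SE, adjusted p = 0.010). col4a6, of the type IV collagen chains of some epithelia, differed by -2.32 ± 0.72 (SE, adjusted p = 0.022). sparc differed by -1.80 ± 0.62 (SE, adjusted p = 0.038) and did not pass with the replicate number as a block (adjusted p = 0.053). The count of 4 lower genes was 2 when negative replicate 2 or 3 or positive replicate 1 or 3 was left out. LAMA5 lost its call without positive replicate 2 (highest adjusted p = 0.060). col4a6 lost its call without negative replicate 2 or 3 or positive replicate 1 or 3 (highest adjusted p = 0.097). sparc lost its call without negative replicate 1, 2 or 3 or positive replicate 1 or 3 (highest adjusted p = 0.16).

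Of 5 genes of caveolae, small pits of the cell surface, the cavin genes cavin2a and cavin2b rose, by 4.52 ± 0.59 (SE, adjusted p = 9.4e-05) and 4.21 ± 0.85 (SE, adjusted p = 0.0017). Of all genes 15.0% were called higher and 14.3% lower. None of the 5 was called lower, but 2 had negative differences, the lowest of -1.12. In 1 of these all positive libraries lay below all negative ones, beside 25.7% of all genes. In the fit of the 6 libraries 3 of the 5 were higher and 1 lower, beside 23.6% and 19.3% of all genes. CAV1, which encodes the main coat protein of these pits, was at 6.73, 6.96 and 6.56 in the mCherry-positive and 6.17, 5.80 and 5.47 in the mCherry-negative libraries, a difference of 0.94 ± 0.39 (SE, adjusted p = 0.079) in groups that did not overlap. Of 14 peptide and chemokine receptors, 11 rose and none fell, beside 15.0% and 14.3% of all genes. npr1a, which encodes a receptor for natriuretic peptides, was at 6.86, 6.96 and 6.81 in the mCherry-positive and 2.76, 0.80 and 0.16 in the mCherry-negative libraries, a difference of 5.64 ± 0.94 (SE, adjusted p = 0.00050). The genes of the adrenomedullin receptor, calcrlb and its partner ramp2, rose by 4.89 ± 1.05 and 4.07 ± 0.82 (highest adjusted p = 0.0024), and ackr3b, which encodes a chemokine scavenger receptor, by 4.91 ± 0.90 (SE, adjusted p = 0.00085). The apelin receptor genes aplnrb and aplnra rose by 2.82 ± 0.68 (SE, adjusted p = 0.0053) and 1.31 ± 0.24 (SE, adjusted p = 0.00083). npr1b, the paralogue of npr1a, ran the other way, at 3.21, 0.15 and 0.48 in the mCherry-positive and 4.92, 3.87 and 3.79 in the mCherry-negative libraries. Its difference of -2.91 ± 1.14 (SE, adjusted p = 0.065) did not pass, but it passed with the replicate number as a block (adjusted p = 0.015) and when positive replicate 1 was left out, which then made it the 1 lower gene of the list.

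Guidance cues, which steer axons and vessel sprouts, went both ways, with 7 higher and 5 lower of 15 found and a median of 0.04. Over all genes 15.0% were higher and 14.3% lower, with a median of 0.10. sema4c was at 8.78, 8.66 and 8.71 in the mCherry-positive and 5.40, 1.19 and 2.99 in the mCherry-negative libraries, a difference of 5.53 ± 0.94 (SE, adjusted p = 0.00055). The secreted semaphorin genes sema3gb and sema3aa rose by 5.11 ± 0.93 and 4.71 ± 1.02 (highest adjusted p = 0.0026), and the vascular receptor genes robo4 and ephb4a, the latter a marker of veins, by 4.15 ± 0.74 and 3.05 ± 0.40 (highest adjusted p = 0.00073). plxnd1, which encodes the semaphorin receptor of ECs, rose by 2.75 ± 0.80 (SE, adjusted p = 0.016) and did not pass with the replicate number as a block (adjusted p = 0.061). On the other side, sema4ba was at 3.02, 3.48 and 1.08 in the mCherry-positive and 6.08, 5.60 and 5.47 in the mCherry-negative libraries, a difference of -3.18 ± 0.56 (SE, adjusted p = 0.00069). The receptor gene plxna4 fell by 3.18 ± 0.57 (SE, adjusted p = 0.00076) and robo2 fell by 1.76 ± 0.33 (SE, adjusted p = 0.00091). Members of the same semaphorin class 4 thus stood on opposite sides, with sema4c higher and sema4ba, sema4bb (-2.38) and sema4e (-2.86) lower, each without overlap between the groups. plxnd1 lost its call without negative replicate 3 (highest adjusted p = 0.068).

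Hepatocyte genes fell. Of 20 hepatocyte markers, 18 were lower and none higher, beside 14.3% of all genes called lower, and the differences lay in a narrow range, from -3.65 to -3.07 with a median of -3.47. fabp10a, the liver fatty acid binding protein gene whose promoter marks hepatocytes in the dsRed line, was at 11.66, 10.45 and 10.44 in the mCherry-positive and 14.63, 14.32 and 14.27 in the mCherry-negative libraries. The difference was -3.55 ± 1.18 (SE, adjusted p = 0.031). The positive libraries, with replicate 1 the highest, lay below all negative libraries but well above 0. tfa, which encodes transferrin, was at 12.62, 11.43 and 12.29 in the mCherry-positive and 15.60, 15.29 and 15.86 in the mCherry-negative libraries, a difference of -3.47 ± 0.998 (SE, adjusted p = 0.015). HNF4A, the nuclear receptor that maintains hepatocyte identity, was at 5.69, 4.79 and 5.13 in the mCherry-positive and 8.71, 8.80 and 9.01 in the mCherry-negative libraries, a difference of -3.64 ± 0.68 (SE, adjusted p = 0.00097). ambp, of a precursor of alpha-1-microglobulin and bikunin, had the largest difference, -3.65 ± 1.08 (SE, adjusted p = 0.018). The mean over the 20 genes was 8.53, 7.42 and 7.91 in the positive and 11.43, 11.25 and 11.47 in the negative libraries, and positive replicate 1 was the highest positive library in 19 of the 20 genes. igfbp1b, which encodes a binding protein of insulin-like growth factors, was at 1.29, 1.35 and 1.23 in the mCherry-positive and 4.56, 4.23 and 5.44 in the mCherry-negative libraries and differed by -3.45 ± 0.48 (SE, adjusted p = 0.00015). The 2 genes short of the threshold were apoa1a and serpina1l, with -3.19 ± 1.195 (SE, adjusted p = 0.054) and -3.21 ± 1.34 (SE, adjusted p = 0.082), and they passed with the replicate number as a block (adjusted p = 0.017 and 0.0085). All 20 were lower in the fit of the 6 libraries, beside 19.3% of all genes. Without negative replicate 1, 2 or 3 the count was 11, 11 and 9, beside 11.4%, 10.9% and 10.5% of all genes. Without positive replicate 1, 2 or 3 it was 15, 8 and 10, beside 11.4%, 10.4% and 11.2% of all genes. In all 20 genes all positive libraries lay below all negative ones, beside 25.7% of all genes. fabp10a lost its call without negative replicate 1, 2 or 3 or positive replicate 2 or 3 (highest adjusted p = 0.093). tfa lost its call without negative replicate 3 or positive replicate 2 (highest adjusted p = 0.068). ambp lost its call without negative replicate 3 or positive replicate 2 or 3 (highest adjusted p = 0.063).

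Genes of coagulation, whose proteins hepatocytes mostly release into the blood, were largely lower. Of 21 coagulation genes found, 16 were lower and 4 higher, beside 14.3% and 15.0% of all genes. The count of higher genes is not far from that share. The fibrinogen chains fga, fgb and FGG, which are also on the hepatocyte list, differed by -3.57, -3.53 and -3.52 (highest adjusted p = 0.026). f5, which encodes clotting factor V, was at 8.70, 7.56 and 8.30 in the mCherry-positive and 11.76, 11.76 and 11.90 in the mCherry-negative libraries, a difference of -3.62 ± 0.63 (SE, adjusted p = 0.00062), and F10 and serpinc1, the genes of factor X and of its inhibitor antithrombin, had differences of -2.94 ± 0.44 (SE, adjusted p = 0.00025) and -3.402 ± 0.99 (SE, adjusted p = 0.016). prozb, of a protein Z, had the most negative difference, -3.93 ± 0.66 (SE, adjusted p = 0.00051). The 4 that rose were f8, which is also on the sinusoidal list, vwf, thbd and plaua. vwf, which encodes the von Willebrand factor that carries factor VIII, was at 7.65, 7.11 and 7.03 in the mCherry-positive and 5.23, 4.08 and 4.04 in the mCherry-negative libraries, a difference of 2.81 ± 0.58 (SE, adjusted p = 0.0018). thbd, which encodes the endothelial receptor thrombomodulin, was at 5.98, 5.60 and 5.83 in the mCherry-positive and 4.197, 3.69 and 3.76 in the mCherry-negative libraries, a difference of 1.92 ± 0.40 (SE, adjusted p = 0.0020). plaua, a urokinase gene of clot breakdown, rose by 2.89 ± 0.74 (SE, adjusted p = 0.0077). f13a1b, a gene of the clot cross-linking enzyme, had a difference of 2.11 ± 0.83 (SE, adjusted p = 0.068) and passed with the block (adjusted p = 0.032). Without positive replicate 2, where 10.4% of all genes were called lower, the count of lower genes was 9. In the fit of the 6 libraries 16 were lower and 5 higher, beside 19.3% and 23.6% of all genes. fgb and FGG lost their calls without negative replicate 1, 2 or 3 or positive replicate 2 or 3 (highest adjusted p = 0.089 and 0.080). serpinc1 lost its call without positive replicate 2 (highest adjusted p = 0.061).

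Of 27 complement genes, 20 were lower and 4 higher, beside 14.3% and 15.0% of all genes, so that the count of higher genes is near the background. c3a.1, of the central component C3, was at 11.75, 10.74 and 11.38 in the mCherry-positive and 14.88, 14.81 and 15.08 in the mCherry-negative libraries, a difference of -3.63 ± 1.09 (SE, adjusted p = 0.019). c5, of the start of the membrane attack pathway, differed by -3.65 ± 0.49 (SE, adjusted p = 0.00012), and cfh, the main soluble inhibitor gene, by -3.66 ± 0.97 (SE, adjusted p = 0.0091). The most negative difference was that of c7b, of a component of the membrane attack complex, with -4.37 ± 1.08 (SE, adjusted p = 0.0062). The 4 higher genes were c1qa, c1qb and c1qc, of the recognition molecule C1q, and cfp, of properdin, and all are known from macrophages. c1qa, c1qb and c1qc are also on the macrophage list. c1qb was at 9.26, 9.36 and 9.65 in the mCherry-positive and 6.81, 5.91 and 5.78 in the mCherry-negative libraries, a difference of 3.26 ± 0.77 (SE, adjusted p = 0.0047), and cfp was at 8.62, 8.84 and 9.01 in the mCherry-positive and 6.44, 5.78 and 5.41 in the mCherry-negative libraries, a difference of 2.95 ± 0.68 (SE, adjusted p = 0.0040). The groups did not overlap in either. The count of lower complement genes was 10 without negative replicate 3, 8 without positive replicate 2 and 21 in the fit of the 6 libraries. These settings called 10.5%, 10.4% and 19.3% of all genes lower. Several C3 and factor H genes are close copies, and how reads were shared between them is not given in the sources used here, so that single members of these families are uncertain. c3a.1 lost its call without negative replicate 3 or positive replicate 2 (highest adjusted p = 0.070).

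Of 18 apolipoprotein and lipoprotein enzyme genes 14 were lower. Of all genes 14.3% were lower, and 19.3% in the fit of the 6 libraries. apobb.1, of the structural protein of low density lipoproteins, was at 11.93, 10.73 and 11.32 in the mCherry-positive and 14.90, 14.67 and 14.84 in the mCherry-negative libraries, a difference of -3.47 ± 0.77 (SE, adjusted p = 0.0031), and lcat, of the enzyme that esterifies cholesterol in plasma, fell the most, by 4.29 ± 0.75 (SE, adjusted p = 0.00066). The count was 7 or 8 when negative replicate 1, 2 or 3 or positive replicate 2 or 3 was left out, and 16 in the fit of the 6 libraries. Of 7 vitellogenins, the yolk precursors that the liver of females makes under oestrogen, 4 were lower, and all 7 had nearly the same difference, between -3.44 and -3.33. vtg1 was at 18.16, 17.46 and 17.62 in the mCherry-positive and 20.98, 21.15 and 21.11 in the mCherry-negative libraries. Its difference of -3.33 ± 3.66 (SE, adjusted p = 0.54) did not pass, although the groups did not overlap, and it passed in the fit of the 6 libraries (adjusted p = 0.041), as did all 7. vtg4 had the largest difference, -3.44 ± 1.23 (SE, adjusted p = 0.045). vtg7 was at 12.80, 11.66 and 12.38 in the mCherry-positive and 15.64, 15.41 and 15.98 in the mCherry-negative libraries, a difference of -3.39 ± 1.12 (SE, adjusted p = 0.030). Left without EGFP-negative replicate 3, a setting chosen after seeing the data, the 18-library fit also called all 7, whereas without any 1 mCherry-negative library, or without positive replicate 2 or 3, it called 0, with 1 lower gene without positive replicate 1. vtg4 and vtg7 lost their calls without negative replicate 1, 2 or 3 or positive replicate 1, 2 or 3 (highest adjusted p = 0.16 and 0.11).

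Metabolic genes of the hepatocyte were lower too. Among genes of glucose and amino acid metabolism, 22 of 26 were lower (24 in the fit of the 6 libraries), with a median of -3.31. The counts of this paragraph stand beside 14.3% of all genes called lower, or 19.3% in the fit of the 6 libraries. PCK1, the rate-limiting enzyme gene of glucose synthesis, was at 7.31, 6.94 and 8.07 in the mCherry-positive and 10.04, 10.90 and 11.75 in the mCherry-negative libraries, a difference of -3.46 ± 0.57 (SE, adjusted p = 0.00047). agxt2, of an aminotransferase of the mitochondrion, fell the most, by 4.11 ± 0.85 (SE, adjusted p = 0.0018), and acmsd, of tryptophan breakdown, fell by 3.12 ± 0.31 (SE, adjusted p = 8.5e-06). fbp1b, of fructose bisphosphatase, fell by 3.34 ± 0.80 (SE, adjusted p = 0.0050). Of 18 cytochrome P450 genes of families 1 to 4, which oxidise drugs, toxins and steroids, 13 were lower. The count was 7 without positive replicate 2 and 16 in the fit of the 6 libraries. cyp2y3 was at 5.87, 4.66 and 4.93 in the mCherry-positive and 9.22, 8.63 and 9.07 in the mCherry-negative libraries, a difference of -3.82 ± 0.78 (SE, adjusted p = 0.0017), and cyp1a, the classical target of the aryl hydrocarbon receptor, differed by -3.33 ± 0.76 (SE, adjusted p = 0.0038). Of 14 conjugation enzymes, which make such compounds soluble, 12 were lower (13 in the fit of the 6 libraries). nqo1, a quinone reductase gene induced by oxidative stress, was at 0.45, 0.32 and 0.63 in the mCherry-positive and 4.45, 3.49 and 5.21 in the mCherry-negative libraries, a difference of -3.92 ± 0.72 (SE, adjusted p = 0.00091), and gsta.1, of glutathione transferase, differed by -3.38 ± 0.48 (SE, adjusted p = 0.00018). Of 10 bile acid genes 6 were lower (7 in the fit of the 6 libraries), among them cyp7a1, of the rate-limiting enzyme of bile acid synthesis, with -3.53 ± 1.22 (SE, adjusted p = 0.038), and nr1h4, of the bile acid receptor FXR, with -3.33 ± 0.34 (SE, adjusted p = 9.9e-06). cyp7a1 lost its call without negative replicate 1, 2 or 3 or positive replicate 1, 2 or 3 (highest adjusted p = 0.10).

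Of 20 genes of fatty acid synthesis and oxidation, a list that also holds soat2, of cholesterol esterification, 17 were lower, with a median of -2.17. In the fit of the 6 libraries 15 were lower. The counts of lower genes in this paragraph stand beside 14.3% of all genes, or 19.3% in the fit of the 6 libraries. Of 20 genes of cholesterol synthesis, a list that also holds the uptake receptor gene ldlra, 4 were lower and 0 higher, with a median of -0.83. The 4 include ldlra, and the count is near the background of 14.3% of all genes called lower. fasn, of fatty acid synthase, was at 7.45, 6.83 and 7.41 in the mCherry-positive and 8.81, 9.41 and 9.66 in the mCherry-negative libraries, a difference of -2.06 ± 0.46 (SE, adjusted p = 0.0031). soat2, of the enzyme that esterifies cholesterol in the liver, was at 2.87, 2.34 and 1.31 in the mCherry-positive and 6.31, 6.78 and 6.19 in the mCherry-negative libraries, a difference of -4.25 ± 0.79 (SE, adjusted p = 0.00093). elovl2, which lengthens polyunsaturated fatty acids, fell by 3.73 ± 0.95 (SE, adjusted p = 0.0073), and cpt1ab, which admits fatty acids to the mitochondrion, fell by 2.40 ± 0.36 (SE, adjusted p = 0.00023). Among cholesterol genes, tm7sf2, a sterol reductase gene, was at 3.17, 2.65 and 3.06 in the mCherry-positive and 5.52, 5.25 and 5.36 in the mCherry-negative libraries, a difference of -2.41 ± 0.53 (SE, adjusted p = 0.0029). ldlra, of the receptor that takes up low density lipoprotein, had the largest difference of this list, -3.34 ± 0.58 (SE, adjusted p = 0.00065). IDI1, of an early step in isoprenoid synthesis, fell by 1.75 ± 0.53 (SE, adjusted p = 0.019). acat2, of the first step of the pathway, fell by 2.03 ± 0.73 (SE, adjusted p = 0.044) and did not pass with the replicate number as a block (adjusted p = 0.076). hmgcra, of the rate-limiting enzyme, was at 2.89, 0.57 and 1.33 in the mCherry-positive and 3.06, 4.28 and 4.02 in the mCherry-negative libraries and did not pass, with a difference of -2.19 ± 1.12 (SE, adjusted p = 0.16). The cholesterol count was 9 in the fit of the 6 libraries, and 2 without negative replicate 2, negative replicate 3 or positive replicate 2. The difference between the lists was not tested. Of 12 chaperones of the endoplasmic reticulum, which fold secreted proteins, 9 were lower (10 in the fit of the 6 libraries) with a median of -1.38. dnajc3a, of a chaperone partner of BiP, had the most negative difference, -1.71 ± 0.34 (SE, adjusted p = 0.0014). HSP90B1 was at 9.07, 9.18 and 9.13 in the mCherry-positive and 10.77, 10.73 and 10.98 in the mCherry-negative libraries, a difference of -1.70 ± 0.35 (SE, adjusted p = 0.0018), and hspa5, of the chaperone BiP, differed by -1.35 ± 0.40 (SE, adjusted p = 0.018). The count was 4 without negative replicate 1, 5 without negative replicate 3 and 4 without positive replicate 2. pdia4, of a disulfide isomerase, had a difference of -1.196 ± 0.40 (SE, adjusted p = 0.033), and XBP1, of a factor of the unfolded protein response, one of -1.01 ± 0.33 (SE, adjusted p = 0.029), and both lost their calls with the block (adjusted p = 0.080 and 0.061). IDI1 lost its call without negative replicate 2 or 3 or positive replicate 2 (highest adjusted p = 0.088). acat2 lost its call without negative replicate 1, 2 or 3 or positive replicate 1, 2 or 3 (highest adjusted p = 0.17). hspa5 lost its call without negative replicate 1 or 3 or positive replicate 2 (highest adjusted p = 0.062). pdia4 lost its call without negative replicate 1, 2 or 3 or positive replicate 2 or 3 (highest adjusted p = 0.13). XBP1 lost its call without negative replicate 1 or 3 or positive replicate 1 or 2 (highest adjusted p = 0.12).

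mCherry-positive cells also held more macrophage transcripts. Of 12 macrophage markers 11 rose and none fell, beside 15.0% and 14.3% of all genes, with a median of 3.21. The list mean was 8.58, 8.47 and 8.77 in the positive and 6.29, 5.48 and 5.00 in the negative libraries. csf1ra, of the receptor on which macrophages depend for survival, was at 10.77, 10.47 and 10.86 in the mCherry-positive and 7.99, 7.29 and 6.79 in the mCherry-negative libraries, a difference of 3.34 ± 0.68 (SE, adjusted p = 0.0017). marco, of a scavenger receptor of macrophages, was at 8.37, 8.60 and 8.64 in the mCherry-positive and 6.01, 4.70 and 4.09 in the mCherry-negative libraries, a difference of 3.598 ± 0.87 (SE, adjusted p = 0.0053). cd74a, of the invariant chain of antigen presentation, was at 12.90, 12.53 and 13.14 in the mCherry-positive and 10.59, 9.96 and 9.47 in the mCherry-negative libraries, a difference of 2.85 ± 0.63 (SE, adjusted p = 0.0031). No negative library reached a positive one in any of the 3 genes, and the negative libraries were again ordered with replicate 1 at the top in 10 of 12 markers. mafbb, a transcription factor gene of the myeloid lineage, rose by 3.75 ± 0.81 (SE, adjusted p = 0.0026), and havcr1 and grn1 by 3.69 ± 0.70 (SE, adjusted p = 0.0011) and 2.46 ± 0.70 (SE, adjusted p = 0.014). csf1rb, the paralogue of csf1ra, had a difference of 1.09 ± 0.96 (SE, adjusted p = 0.44). All 12 macrophage genes lay above all negative libraries in the positive ones, as did all 19 endothelial genes, beside 30.4% of all genes. The part of macrophage transcripts in the other differences was not tested. grn1 lost its call without positive replicate 3 (highest adjusted p = 0.053).

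A list of leukocyte genes held markers of most leukocytes, such as ptprc, and genes of the myeloid lineage, such as spi1a. Of its 18 genes 5 rose and none fell, beside 15.0% of all genes called higher, with a median of 1.22. In the fit of the 6 libraries 16 rose, beside 23.6% of all genes. spi1a, of the myeloid factor PU.1, was at 8.32, 8.41 and 8.74 in the mCherry-positive and 5.87, 5.87 and 5.87 in the mCherry-negative libraries, a difference of 2.62 ± 0.58 (SE, adjusted p = 0.0031), and fcer1gl, of a signalling chain of Fc receptors, differed by 2.78 ± 0.79 (SE, adjusted p = 0.014). itgb2, of the leukocyte integrin beta chain, was at 8.61, 8.68 and 8.84 in the mCherry-positive and 7.07, 6.98 and 6.502 in the mCherry-negative libraries. Its difference of 1.86 ± 0.68 (SE) had an adjusted p of 0.04998, just inside the threshold, and did not pass with the replicate number as a block (adjusted p = 0.098). ptprc, of the pan-leukocyte antigen CD45, was at 9.31, 9.33 and 9.66 in the mCherry-positive and 8.23, 9.06 and 8.41 in the mCherry-negative libraries with a difference of 0.87 ± 0.77 (SE, adjusted p = 0.44), and negative replicate 2 came closest to the positive libraries. The 5 became 3 without negative replicate 1, positive replicate 1 or positive replicate 2, 2 without negative replicate 3 and 1 without positive replicate 3. They became 12 without EGFP-negative replicate 3, which was chosen after seeing the data. fcer1gl lost its call without positive replicate 3 (highest adjusted p = 0.057). itgb2 lost its call without negative replicate 1, 2 or 3 or positive replicate 1, 2 or 3 (highest adjusted p = 0.14).

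Of 13 lymphocyte genes 8 were lower and 2 higher, with a median of -1.35, beside 14.3% and 15.0% of all genes. The count of 2 higher genes is thus near the background. ZAP70, of the kinase that starts the signal of the T cell receptor, was at -1.49, 0.01 and -1.36 in the mCherry-positive and 2.94, 4.46 and 3.80 in the mCherry-negative libraries, a difference of -4.67 ± 0.47 (SE, adjusted p = 9.9e-06). The positive libraries lay near or below 0, and the groups did not overlap. cd8a, of the co-receptor of cytotoxic T cells, was at 0.32, 0.17 and -1.07 in the mCherry-positive and 2.55, 5.57 and 2.18 in the mCherry-negative libraries, a difference of -3.63 ± 0.71 (SE, adjusted p = 0.0013), and il7r and lck, also of T cells, differed by -3.19 ± 0.83 (SE, adjusted p = 0.0085) and -2.75 ± 0.65 (SE, adjusted p = 0.0045). ighm, of the heavy chain of immunoglobulin M, was at 5.47, 8.91 and 7.28 in the mCherry-positive and 10.25, 11.81 and 10.53 in the mCherry-negative libraries, a difference of -3.65 ± 1.12 (SE, adjusted p = 0.021), with a wide spread in both groups and negative replicate 2 the highest. The B cell receptor genes cd79a and cd79b differed by -1.35 and -1.29 (highest adjusted p = 0.023). The 2 higher genes were cd22, of an inhibitory receptor of B cells, and crtam, of an adhesion receptor of activated T and natural killer cells in mammals, with 2.21 ± 0.77 (SE, adjusted p = 0.040) and 1.82 ± 0.62 (SE, adjusted p = 0.035). Neither passed with the replicate number as a block (adjusted p = 0.080 and 0.061), and no single omission of a mCherry library kept more than 1 of them. The count of 8 lower genes was 5 without negative replicate 2, positive replicate 1 or positive replicate 3. ighm lost its call without negative replicate 2 or positive replicate 1 or 3 (highest adjusted p = 0.11). cd79a lost its call without negative replicate 2 or 3 or positive replicate 3 (highest adjusted p = 0.12). cd79b lost its call without positive replicate 1 (highest adjusted p = 0.055). cd22 lost its call without negative replicate 1, 2 or 3 or positive replicate 1, 2 or 3 (highest adjusted p = 0.15). crtam lost its call without negative replicate 2 or 3 or positive replicate 1, 2 or 3 (highest adjusted p = 0.14).

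Of 6 listed neutrophil markers only npsn and MMP9 were found by their symbols, and both were lower, beside 14.3% of all genes. MMP9, of a matrix-degrading gelatinase, was at -0.61, 0.88 and 0.90 in the mCherry-positive and 4.31, 4.49 and 4.48 in the mCherry-negative libraries, a difference of -4.04 ± 1.16 (SE, adjusted p = 0.015), and npsn, of a granule protease, was at 0.28, 0.55 and -0.93 in the mCherry-positive and 4.46, 3.63 and 3.02 in the mCherry-negative libraries, a difference of -3.73 ± 1.16 (SE, adjusted p = 0.023). The positive libraries lay below 1 in both genes and the negative libraries above 3. MMP9 lost its call without positive replicate 1 (highest adjusted p = 0.064). npsn lost its call without negative replicate 1 or 2 or positive replicate 3 (highest adjusted p = 0.086).

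Red blood cell transcripts were lower in positive cells, and they also differed by replicate number. Of 6 erythroid markers 5 were lower, beside 14.3% of all genes, with a median of -3.57. In only 3 of these markers did all positive libraries lie below all negative ones, beside 25.7% of all genes. In the fit of the 6 libraries 4 were lower, beside 19.3% of all genes. The list mean was 0.49, 3.46 and 2.86 in the positive and 3.62, 6.51 and 7.35 in the negative libraries. Replicate 1 was the lowest library of its group in all 6 genes, in both groups. alas2, of the first enzyme of heme synthesis in red cells, was at -0.86, 3.83 and 3.89 in the mCherry-positive and 4.49, 7.67 and 8.25 in the mCherry-negative libraries, a difference of -4.52 ± 1.11 (SE, adjusted p = 0.0058). hbaa1, of an adult haemoglobin alpha chain, was at 3.603, 5.81 and 5.25 in the mCherry-positive and 6.58, 9.04 and 9.71 in the mCherry-negative libraries, a difference of -3.56 ± 0.82 (SE, adjusted p = 0.0040). gata1a, the master factor of the lineage, had a difference of -2.77 ± 1.17 (SE, adjusted p = 0.084), and it passed with the block (adjusted p = 0.033) and without negative replicate 1 (adjusted p = 0.0081). The 5 became 3 without negative replicate 2, negative replicate 3 or positive replicate 1. Of 3 thrombocyte genes only GP1BB, of the receptor for von Willebrand factor on these cells, was lower, at -0.93, 0.73 and 2.59 in the mCherry-positive and 2.33, 4.58 and 5.00 in the mCherry-negative libraries with a difference of -3.17 ± 1.02 (SE, adjusted p = 0.027), and none was called without negative replicate 2 or 3 or positive replicate 1 or 2. GP1BB lost its call without negative replicate 2 or 3 or positive replicate 1 or 2 (highest adjusted p = 0.14).

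A low replicate 1 also appeared in genes of the exocrine pancreas, a tissue that lies against the liver of fish. The mean over 11 digestive enzyme genes was 0.71, 4.29 and 3.61 in the positive and 2.66, 3.75 and 4.52 in the negative libraries. ela3l, of an elastase, was at 0.37, 5.25 and 4.53 in the mCherry-positive and 4.01, 4.93 and 4.86 in the mCherry-negative libraries. Positive replicate 1 was the lowest positive library in all 11 genes and negative replicate 1 the lowest negative library in 9. By limma 0 of the 11 were called, beside 29.3% of all genes, and 0 had an unadjusted p below 0.05 in either direction. Groups overlapped in all 11, whereas they did not overlap for 56.1% of all genes.

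Of 9 epithelial markers of bile ducts found, 4 were lower and 2 higher, beside 14.3% and 15.0% of all genes. The count of higher genes is not far from that share. epcam, of an adhesion protein of bile duct cells, was at 2.80, 2.40 and 1.56 in the mCherry-positive and 5.98, 5.69 and 5.02 in the mCherry-negative libraries, a difference of -3.31 ± 0.84 (SE, adjusted p = 0.0073), and cdh1, of epithelial cadherin, was at 5.44, 4.04 and 4.27 in the mCherry-positive and 8.24, 8.07 and 7.85 in the mCherry-negative libraries, a difference of -3.47 ± 0.52 (SE, adjusted p = 0.00025). tm4sf4, a gene of liver and gut epithelia, fell the most, by 4.07 ± 0.66 (SE, adjusted p = 0.00042). The keratin genes krt8 and krt18a.1, whose products pair in simple epithelia, were instead higher. krt8 was at 13.05, 12.67 and 12.73 in the mCherry-positive and 11.86, 11.36 and 11.33 in the mCherry-negative libraries, a difference of 1.303 ± 0.36 (SE, adjusted p = 0.011), and krt18a.1 was at 10.47, 10.41 and 10.35 in the mCherry-positive and 9.88, 9.40 and 9.42 in the mCherry-negative libraries, a difference of 0.85 ± 0.29 (SE, adjusted p = 0.036). The groups did not overlap in either gene, but when each library was centred on its median, or when any library other than negative replicate 1 was left out, 1 of the 2 was called. The count of 4 lower genes was 7 without EGFP-negative replicate 3. ANXA4, another bile duct marker, was short of the threshold, with a difference of -1.73 ± 0.65 (SE, adjusted p = 0.053). krt18a.1 lost its call without negative replicate 2 or 3 or positive replicate 1, 2 or 3 (highest adjusted p = 0.12).

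Of 14 stellate markers 0 were called by limma in either direction, beside 15.0% of all genes called higher and 14.3% lower. By limma 4 of the 14 had an unadjusted p below 0.05, all lower, beside 3807 higher and 3464 lower of all 18336 genes. The median difference of the list was -0.81. The list means were 1.21, 0.78 and 0.59 in the positive and 1.65, 1.63 and 1.83 in the negative libraries, low in both. mmp2, of a gelatinase of fibroblasts, was at 2.37, 1.29 and 1.56 in the mCherry-positive and 3.75, 3.78 and 3.80 in the mCherry-negative libraries with a difference of -2.04 ± 0.83 (SE, adjusted p = 0.076). hand2, whose promoter marks stellate cells in the EGFP line, was at -0.69, -0.73 and -0.63 in the mCherry-positive and -0.36, 0.67 and 1.09 in the mCherry-negative libraries, a difference of -1.15 ± 0.52 (SE, adjusted p = 0.11). PDGFRB, of a receptor of pericytes, had a positive difference of 1.04 ± 0.61 (SE, adjusted p = 0.22). In the fit of the 6 libraries 1 gene, PDGFRB, was higher and 5 were lower, beside 23.6% and 19.3% of all genes. Of 4 oocyte genes 0 were called and 0 had an unadjusted p below 0.05, with list means from -0.95 to 0.10 in all 6 libraries. Of 20 cell cycle genes 0 were called by limma, beside 15.0% of all genes called higher and 14.3% lower. At an unadjusted p below 0.05 of limma 1 was higher and 1 lower, beside 3807 and 3464 of all 18336 genes. In the fit of the 6 libraries 0 were higher and 1 lower, beside 23.6% and 19.3% of all genes. aspm, of a spindle protein, had the most negative value, -1.32 ± 0.62 (SE, adjusted p = 0.12), and espl1, of the protease separase, the most positive, 1.196 ± 0.55 (SE, adjusted p = 0.12). The median was -0.49.

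Genes of the immediate early response, which answer within minutes to growth factors, stress or the handling of cells, were higher in positive cells. Of 13 such and heat shock genes 10 rose and none fell, beside 15.0% and 14.3% of all genes, with a median of 2.06. socs3a, an inhibitor gene of cytokine signalling, was at 12.59, 12.63 and 12.45 in the mCherry-positive and 10.1998, 8.81 and 8.60 in the mCherry-negative libraries, a difference of 3.35 ± 0.67 (SE, adjusted p = 0.0015). FOSB was at 12.43, 12.07 and 11.66 in the mCherry-positive and 10.1978, 8.69 and 8.28 in the mCherry-negative libraries, a difference of 2.995 ± 0.45 (SE, adjusted p = 0.00025), and JUN at 11.87, 11.39 and 11.32 in the mCherry-positive and 10.33, 9.03 and 9.06 in the mCherry-negative libraries, a difference of 2.06 ± 0.34 (SE, adjusted p = 0.00050). Both encode subunits of the transcription factor AP-1. ier2a, BTG2 and DUSP1, also of this early response, rose by 2.25 ± 0.34, 1.93 ± 0.30 and 1.66 ± 0.40 (highest adjusted p = 0.0052), and the heat shock gene hsp70.3 rose by 1.85 ± 0.50 (SE, adjusted p = 0.011). egr1, at 12.69, 11.29 and 11.97 in the mCherry-positive and 11.84, 10.69 and 10.75 in the mCherry-negative libraries, had a difference of 0.89 ± 0.46 (SE, adjusted p = 0.17), and its positive and negative values overlapped. Negative replicate 1 was the highest negative library in all 13 genes and positive replicate 1 the highest positive library in 10. The list means were 9.69, 9.20 and 9.16 in the positive and 8.23, 7.15 and 6.77 in the negative libraries, and negative replicate 1 was thus the highest negative library for this list as for the endothelial list. The part of the endothelial transcripts of that library in these values was not tested. hsp70.3 lost its call without negative replicate 3 (highest adjusted p = 0.065).

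**Figure D5:**
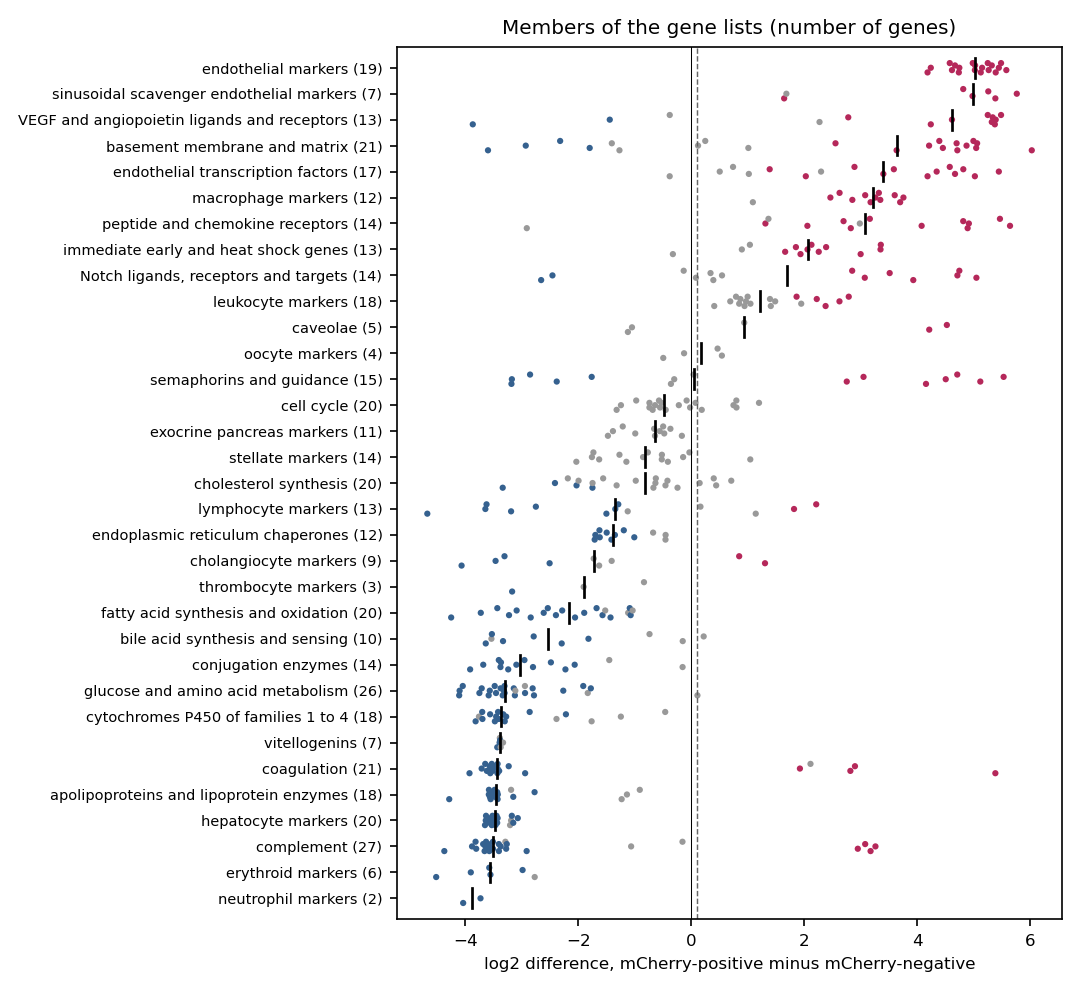
Log2 differences between mCherry-positive and mCherry-negative control cells of the genes found of each list (horizontal axis), with 1 point per gene, red for higher, blue for lower and grey for not past the threshold, black bars at the list medians and a dashed line at the median of all genes, 0.10. The medians run from 5.02 for the endothelial markers to -3.89 for the 2 neutrophil genes, and the points of the hepatocyte markers lie close together between -3.65 and -3.07.

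By size alone, the 10 most raised genes with a symbol and without overlap were emilin2a, oit3, caskin1, LDB2, npr1a, she, ndnf, sema4c, emilin1b and wasf3b. caskin1, of a scaffold protein, was at 9.47, 9.49 and 9.31 in the mCherry-positive and 6.05, 1.91 and 3.33 in the mCherry-negative libraries, a difference of 5.66 ± 0.78 (SE, adjusted p = 0.00014). LDB2, of a cofactor that LIM-domain transcription factors bind, was at 9.40, 9.32 and 9.40 in the mCherry-positive and 6.77, 0.92 and 3.46 in the mCherry-negative libraries, a difference of 5.65 ± 1.13 (SE, adjusted p = 0.0016). Negative replicate 1 was the highest negative library in all 10, whose differences of 5.51 to 6.02 were 6.398 to 7.37 without it. The 10 most lowered were si:ch211-132g1.4, si:ch1073-220m6.1, THEMIS, LOC100329520, si:dkey-58f10.3, si:ch211-250g4.3, SATB1, si:ch211-196f2.6, ZAP70 and samsn1b. THEMIS, needed for the selection of T cells in mice, was at 2.25, -1.10 and -0.84 in the mCherry-positive and 4.53, 5.47 and 4.70 in the mCherry-negative libraries, a difference of -4.80 ± 0.73 (SE, adjusted p = 0.00025). SATB1, of a chromatin organiser of the T cell lineage, was at -0.81, 0.30 and 0.98 in the mCherry-positive and 4.33, 5.65 and 4.63 in the mCherry-negative libraries, a difference of -4.71 ± 0.76 (SE, adjusted p = 0.00039). The most lowered gene, si:ch211-132g1.4, was at -1.34, -0.47 and -1.24 in the mCherry-positive and 4.55, 6.01 and 3.67 in the mCherry-negative libraries, a difference of -5.76 ± 0.53 (SE, adjusted p = 4.8e-06), and several of these genes carry only a clone-based name, to which no role is given here. None of the 10 most lowered genes is on the hepatocyte list, and ZAP70 is on the lymphocyte list. The hepatocyte list holds only 20 genes, so absence from it does not show that a gene is not one of hepatocytes.

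The study sorted genes into clusters A to H by their pattern over samples of the series, among them mCherry-positive control cells, so that a cluster is not independent of the values compared here. The counts by cluster stand beside 15.0% of all genes called higher and 14.3% lower. Of the 145 genes of cluster G, 144 were higher and 1, ighm, was lower, with a median of 4.81, and of the 155 of cluster H, 97 were higher and 0 lower, with a median of 2.28. Of the 554 genes of cluster B, 474 were lower and 0 higher, with a median of -3.23, and of the 95 of cluster F, 84 were lower and 0 higher, with a median of -3.10. Clusters A, C, D and E had medians between -1.49 and -0.47. Without negative replicate 1 the counts of higher genes were 144 in cluster G and 75 in cluster H, beside 12.4% of all genes.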

How the data were processed

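Gene expression was compared between mCherry-positive and mCherry-negative liver cells of control Tg(kdrl:ras-mCherry) zebrafish, with 3 libraries in each group. Per the deposited file and the methods, the authors used FastQC (0.11.8) for read quality, cutadapt (1.18) for trimming, rRNAdust against ribosomal reads, STAR (2.6) for alignment to GRCz11 and SAMtools (1.9), and made the deposited log2 values with the regularized log transform of DESeq2. The counter, the annotation release and the filter on genes are not given in the sources used here. The values ranged from -2.62 to 22.57, are not counts, and leave the depth of each library unknown, so that low levels carry no interval. The table holds all 27 libraries, and the transform pulls differences of genes of few reads towards 0.

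A group-means model was fitted to all 18 control libraries (6 groups of 3, which share an estimate of the spread) with limma (3.58.1, R 4.3.3, with a trend of the variance on the mean), and the contrast of mCherry-positive minus mCherry-negative was adjusted by Benjamini-Hochberg over 18336 genes, with a threshold of 0.05. Differences are printed with their standard errors. An exact permutation test of a single gene with 3 against 3 libraries cannot go below p = 0.10. Symbols came from the supplementary gene table of the study where it gave one, else from a reference table of gene names. They were found for 17244 genes, symbols shared by several genes were left out, and 436 of 532 listed symbols were found. Some genes are on several lists, so the counts of different lists are not independent of each other. The other listed genes are not analysed here, and 1 further list is not reported here. The members, the 33 lists and the tests were chosen with earlier results of these data known. Genes named are kdrl, members of the lists, among them the called member with the largest difference in each list and direction, and the 10 most raised and 10 most lowered called genes with a symbol and without overlap between the groups.

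Replicates of the same number deviated together from their group means (r = 0.186, 0.134 and 0.151 across genes, against -0.125 to -0.005 for other pairs), above the limit of 0.1 for each pair, and a fit with the replicate number as a block was therefore made as well. The labels do not say what a shared number stands for. Other alternatives were the 6 libraries alone, library weights, centring, quantile normalization, a mean rlog of at least 3, an absolute log2 difference of at least 1, no variance trend, each mCherry library left out, and EGFP-negative replicate 3 left out.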

Additional observations from a re-analysis of the deposited data

How the results depend on the processing

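In settings that left the group means as they were, a call could not change direction. These were the 6 libraries alone, the replicate blocks, no variance trend, the mean rlog filter, the minimum difference and EGFP-negative replicate 3 left out. With library weights, centring, quantile normalization or a mCherry library left out, 0 genes were called in the direction opposite to that of the fit as reported. The counts of 2747 higher and 2621 lower genes became 4328 and 3536 with only the 6 mCherry libraries, 4501 and 3987 with library weights, 2547 and 2741 with each library centred on its median, 2882 and 2832 with quantile normalization, 2670 and 2546 without the variance trend, 2477 and 2502 with an absolute log2 difference of at least 1, and 1754 and 2039 with a mean rlog of at least 3, which tests fewer genes. Left without EGFP-negative replicate 3, a setting chosen after seeing the data, they were 3646 and 3329. Leaving out a mCherry library gave 1802 to 2274 higher and 1910 to 2099 lower genes, the lowest count of higher genes being that without negative replicate 3. In the other settings the cause of the changes was not tested.

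With the replicate block the counts were 2536 and 2621 over the 18 libraries, and 4275 and 3582 over the 6 libraries. Of 184 genes named, the replicate block over 18 libraries ended 8 calls and added 6, each given beside its result, and it changed no other call of a named gene. Of 162 named genes that were called, 127 kept the call in all 6 omissions of a mCherry library and 35 lost it in at least 1, each given beside its result. ela3l, of the exocrine pancreas, was the 1 named gene that changed its sign, from -1.22 as reported to 0.29 without positive replicate 1, with -2.15 to 0.29 over the omissions, and it was called in none of them.

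The filter on the mean rlog left fewer genes of low level to test. It left 4 genes of the lymphocyte list, of which 1 was lower and 2 were higher. Of the erythroid list it left 2 genes, of which 2 were lower. It left 0 genes of the neutrophil list, so that no call was possible there. The receptor list had 6 higher genes with this filter. These counts stand beside 1754 higher and 2039 lower genes in all with the filter. The depth of the libraries is unknown, so what sequencing depth limits could not be assessed, and rlog differences of genes of few reads are understated.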

Other observations

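Gene families were also taken by the stem of their symbols, after the values had been seen, and a few of their members, such as ighm, are on the lists as well. The counts of families stand beside 15.0% of all genes called higher and 14.3% lower. In the fit of the 6 libraries these shares were 23.6% and 19.3%. Of 70 genes of cytosolic ribosomal proteins, which build the ribosome in every cell, 69 were lower in mCherry-positive cells and 0 higher, with a median log2 difference of -2.12. Their mean rlog level was 9.38, 8.97 and 9.23 in the positive and 11.24, 11.24 and 11.37 in the negative libraries, so that negative replicate 1, which stood apart in endothelial genes, did not do so here. RPS12 was at 8.96, 8.34 and 8.48 in the mCherry-positive and 11.24, 11.04 and 11.22 in the mCherry-negative libraries, a difference of -2.57 ± 0.43 (SE, adjusted p = 0.00052). The median was -1.34 with quantile normalization, with 65 genes lower, and -2.25 with each library centred on its median. Of 40 proteasome subunits, another family that all cells use, 2 were lower and 0 higher, with a median of -0.04. The difference between these families was not tested.

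Of 15 cathepsins, proteases of the lysosome, 10 were higher and 0 lower, with a median of 2.44. In the fit of the 6 libraries, and in the 18-library fit with library weights or without EGFP-negative replicate 3, 11 were higher and 3 lower. The 3, ctsbb, CTSO and ctss1, had all positive libraries below all negative ones, as did 25.7% of all genes. ctsk was at 7.95, 7.97 and 7.85 in the mCherry-positive and 5.12, 4.48 and 3.61 in the mCherry-negative libraries, a difference of 3.52 ± 0.68 (SE, adjusted p = 0.0012), and CTSD, which is found in most cells with lysosomes, was at 10.31, 10.40 and 10.06 in the mCherry-positive and 7.82, 7.09 and 7.02 in the mCherry-negative libraries, a difference of 2.95 ± 0.44 (SE, adjusted p = 0.00025). The macrophage list moved the same way, and its part in the cathepsin values was not tested. Of 19 immunoglobulin genes, 15 were lower and 0 higher, but 9 were lower in the fit of the 6 libraries. In 12 all positive libraries lay below all negative ones, beside 25.7% of all genes. Their means were -0.78, 1.23 and -0.04 in the positive and 1.96, 4.06 and 2.46 in the negative libraries, and replicate 2 was the highest library of its group in both. The count of lower genes was 10 without negative replicate 2. Of 14 claudins, of tight junctions, 2 were higher and 4 lower, with a median of -0.77, beside 15.0% and 14.3% of all genes. cldn5b, the claudin known from vessels, had a difference of 5.02 ± 1.08 (SE, adjusted p = 0.0025), whereas cldn2, known from leaky epithelia, had one of -3.995 ± 0.76 (SE, adjusted p = 0.0011). Of 24 forkhead factors, 7 were lower, among them FOXA2 and foxa3, of liver development, with -3.61 ± 0.27 (SE, adjusted p = 5.4e-07) and -3.43 ± 0.35 (SE, adjusted p = 1.1e-05), and 3 were higher, a count below the 15.0% of all genes. foxp3a, of regulatory T cells, was at -1.13, 0.46 and 0.28 in the mCherry-positive and 2.03, 4.74 and 5.03 in the mCherry-negative libraries, a difference of -4.07 ± 0.68 (SE, adjusted p = 0.00051). Of the 13 protein genes of the mitochondrial genome 1 was lower, with a median of -0.85. In all 13 all positive libraries lay below all negative ones, beside 25.7% of all genes. In the fit of the 6 libraries, and in the 18-library fit with library weights or without EGFP-negative replicate 3, 12 were lower. With quantile normalization 3 were higher and 2 lower, with a median of -0.14. The count thus depended on the setting, and the cause was not tested. Of the 18 families taken, 11 are not described further: class I and class II major histocompatibility genes, integrins, keratins, Kruppel-like and Sox factors, toll-like receptors, chemokine ligands, aquaporins, tetraspanins and cadherins. They had 5 to 37 genes each, of which 3 to 9 were higher and 0 to 6 lower, beside 15.0% and 14.3% of all genes.

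In the other groups of the series, the mean level of the 19 endothelial markers was 5.59 to 5.75 in the dsRed-negative and 2.09 to 2.61 in the dsRed-positive control libraries. In the 3 libraries labelled as mCherry-positive cells of TAA-treated fish it was 0.39 to 0.76, with a hepatocyte mean of 12.04 to 12.62 and a macrophage mean of 1.53 to 1.85, against 8.39 to 8.71, 7.42 to 8.53 and 8.47 to 8.77 in the mCherry-positive control libraries. These values do not follow the label of an endothelial gate. All 3 libraries are also of treated fish, so an effect of TAA cannot be told apart from other cells in the gate or exchanged labels. The cause was not tested. The transcripts of the reporters and the chromatin data of these cells, which also bear on the label, are not analysed here, and the TAA libraries entered none of the fits above.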
